A study of Mus musculus with 12 samples.

Results

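The comparison described here asked whether Western-type feeding changed a gene by a different amount in mice without sphingosine kinase 2 (SphK2) than in wild-type mice, which is the diet by genotype interaction. It used all 12 libraries of the series, 3 in each of 4 groups, and was computed for every gene as the diet response of the knockout minus the diet response of the wild type, each taken as Western diet minus control diet on a log2 scale. A positive interaction therefore means that the gene went further up, or less far down, in the knockout. Of 453 genes tested, 6 passed (1.32%; limma, adjusted p under a threshold of 0.05). Cfd, H2-Eb1, Il1a, Irf1 and Tapbp had the more positive response in the knockout, and Ltbr had the more negative one. Short of that threshold, the interaction was positive at an unadjusted p under 0.05 for 8 of 10 genes of MHC class II antigen presentation, 15 of 38 of interferon and JAK-STAT signalling and 13 of 28 of macrophages and monocytes, against 25.2% of all tested genes. Further lists had high shares too: 8 of 14 integrins and other surface molecules, and 9 of 18 Fc receptor and Syk signalling genes. For Tgf-beta signalling and repair the count was 8 of 16. The median interaction of the interferon list, 0.28, was near that of all genes (0.21) and turned negative under some other library scalings. At the same threshold the interaction was negative for 10 of 30 genes made by hepatocytes, against 6.18%.

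SphK2 phosphorylates sphingosine to sphingosine 1-phosphate, a lipid signal that acts inside cells and through surface receptors on immune and endothelial cells. Metabolic dysfunction-associated steatohepatitis (MASH) is fatty liver with inflammation, in which monocytes enter the liver and become macrophages. Interferon gamma, made by lymphocytes, binds its receptor (Ifngr1 with Ifngr2), activates the kinases Jak1 and Jak2, and so induces Irf1 and the class II transactivator Ciita. Ciita in turn drives the class II genes with which macrophages, dendritic cells and B cells present peptides to helper T cells.

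All mice were male and of C57BL6-NJ background, and RNA was counted with a NanoString panel of 547 gene-specific barcoded probes, mostly for immune genes, in what the series title calls liver. Wild-type and constitutive SphK2-/- mice received either the control diet with normal water or the Western diet with sugar water, started at 12 to 18 weeks of age and kept up for 16 weeks per the labels' protocols. Per-sample duration labels differ from this and rise by 1 week from sample to sample in the order listed: 16, 17 and 24 weeks in wild-type control mice, 18, 19 and 25 in wild-type Western-diet mice, 20, 21 and 26 in knockout control mice, and 22, 23 and 27 in knockout Western-diet mice. Which of the labels holds was not settled, and duration entered no fit. Labelled ages were 231, 231 and 232 days in wild-type control mice, 226, 226 and 232 in wild-type Western-diet mice, 259, 253 and 250 in knockout control mice, and 221, 217 and 252 in knockout Western-diet mice. Ages of 250 days and above are more than the protocol times allow. Age thus differed between the diets in the knockout, and with age as a covariate the interaction was called for 1 gene, Cfd (adjusted p = 0.0468). The knockout is constitutive, so no response can be assigned to one cell type. Neither Sphk2 nor Sphk1 had a probe among those measured, so the genotype could not be checked in the RNA.

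Recovered whole counts were 440842 to 643638 per library. After the authors' scaling the normalized total was 748718 in knockout control replicate 2 and 604594 in knockout control replicate 3. In the other libraries it was 473628 to 506442. The 30 tested hepatocyte-made genes, among them the iron hormone gene Hamp at 11180 to 53770 normalized counts, were abundant in every library. A pair of libraries stood apart: wild-type Western-diet replicate 2 lay with the control-diet libraries on the first principal component (-5.59, against -6.65 to -3.76), and knockout control-diet replicate 2 lay at the end of the second (9.0). Without both, 6 genes were again called, 3 of them the same (Cfd, H2-Eb1 and Tapbp). Each title carries a different number, read here as that of a separate mouse although the labels do not define it, and p-values measure the spread between these samples. In bulk RNA a change in the number of cells of a type and a change in RNA per cell cannot be told apart.

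Because the calls include a class II gene, an interferon-induced transcription factor and a class I loading factor, their promoters are shown first, from 250 bases before to 50 bases after the start site, from the RefSeq table of build GRCm38.p6. The Irf1 window lies at chr11:53769764-53770063 on the plus strand, that of H2-Eb1 at chr17:34305617-34305916 on the plus strand, and that of Tapbp at chr17:33919228-33919527 on the plus strand. Capitals mark matches to TTCNNNGAA, the palindrome that STAT factors bind, and to CCAAT, the box bound by NF-Y, on either strand.
Irf1: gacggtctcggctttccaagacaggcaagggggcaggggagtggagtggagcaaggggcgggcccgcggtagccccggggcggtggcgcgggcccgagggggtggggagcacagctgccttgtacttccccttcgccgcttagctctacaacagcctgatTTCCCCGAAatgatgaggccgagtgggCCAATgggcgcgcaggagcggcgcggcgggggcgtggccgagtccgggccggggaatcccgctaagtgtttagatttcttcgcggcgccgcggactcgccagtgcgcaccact
H2-Eb1: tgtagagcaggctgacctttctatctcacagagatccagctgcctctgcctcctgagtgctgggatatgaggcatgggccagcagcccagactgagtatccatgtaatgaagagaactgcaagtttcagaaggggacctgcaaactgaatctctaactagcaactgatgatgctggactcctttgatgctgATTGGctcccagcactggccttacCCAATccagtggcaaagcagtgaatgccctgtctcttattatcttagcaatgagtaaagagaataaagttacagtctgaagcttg
Tapbp: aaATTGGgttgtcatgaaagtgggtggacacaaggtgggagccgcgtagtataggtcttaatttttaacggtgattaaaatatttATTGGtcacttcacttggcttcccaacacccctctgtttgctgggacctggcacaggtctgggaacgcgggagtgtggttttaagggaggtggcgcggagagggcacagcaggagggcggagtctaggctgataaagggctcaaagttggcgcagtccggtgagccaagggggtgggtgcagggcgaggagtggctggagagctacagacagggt
In the Irf1 window the STAT-type match began at -90 and a CCAAT box at -63. H2-Eb1 held CCAAT boxes at -59 and -35, and Tapbp at -248 and -165. Over 32841 promoters of this length in the table, 8.3% held TTCNNNGAA and 37.4% held CCAAT. Also searched, on both strands and not capitalised, were an NF-kB type pattern (GGG, any 5 bases, CC, in 50.8% of promoters), an interferon response type pattern (GAAA, any 2 bases, GAAA, in 3.44%) and TTANNTAA (the D-box type bound by Nfil3, 6%). The Irf1 window held 4 matches to the NF-kB type pattern, of which those at -196 and -195 overlap each other, and the H2-Eb1 window held 1 at -43, which overlaps the second CCAAT box. None of the windows printed held the interferon response or D-box type pattern. A second Irf1 promoter in the table, further downstream, held none of the 5 motifs. All 6 called genes and 341 of the 453 tested genes had a promoter in the table, and these matches describe letters only.

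Cfd, which encodes complement factor D (adipsin), the protease that starts the alternative complement pathway, had the most positive interaction. Wild-type control libraries held 99.3, 237 and 167 normalized counts and wild-type Western-diet libraries 281, 296 and 289.6. Knockout control libraries held 27.3, 21.7 and 22.7, and knockout Western-diet libraries 234, 293 and 262. The knockout control mice were thus lowest, without overlap with any other group, and on the Western diet the genotypes overlapped. The diet response was 0.87 (SE 0.24) in the wild type and 3.40 (SE 0.24) in the knockout, and the interaction was 2.54 (SE 0.34, n = 3 per group). It passed in limma with Benjamini-Hochberg adjustment (adjusted p = 0.00427), and on the control diet the genotypes differed by -2.68 (limma, adjusted p = 3.28e-05). Leaving out any 1 of the 12 libraries left Cfd called, with an interaction between 2.24 and 2.87.

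H2-Eb1, the beta chain of a class II molecule, differed between the genotypes on both diets, in opposite directions. Knockout Western-diet libraries held 861, 1060 and 921 normalized counts and knockout control libraries 274, 144 and 224. Wild-type libraries held 369.9, 282 and 384 on the control diet and 596, 206 and 356 on the Western diet. The wild-type diets overlapped, the knockout diets did not, and every knockout Western-diet library was above all other libraries. On the control diet every knockout library was below every wild-type library. The interaction was 2.14 (SE 0.46; limma, adjusted p = 0.0414), made of a response of 0.04 (SE 0.32) in the wild type and 2.18 (SE 0.32) in the knockout. With wild-type Western-diet replicate 2 left out, which had the lowest wild-type level, the interaction was 1.75 and was still called (limma, adjusted p = 0.0479). Over the 12 omissions of 1 library H2-Eb1 was called in only 4, with an interaction between 1.75 and 2.52.

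Il1a encodes interleukin 1 alpha, an alarm cytokine released by damaged and activated cells. It rose in both genotypes: from 82.8, 82.8 and 85.9 normalized counts to 119, 110.1 and 109 in wild-type mice, and from 90.4, 79.2 and 84.0 to 192, 201 and 203 in the knockout. The control libraries of the genotypes overlapped and the Western-diet libraries did not. The response was 0.42 (SE 0.11) in the wild type and 1.23 (SE 0.11) in the knockout, an interaction of 0.81 (SE 0.15; limma, adjusted p = 0.0414).

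Irf1, a transcription factor that interferon gamma induces, fell on the Western diet in the wild type, from 966, 749.9 and 850 normalized counts to 588, 509 and 568. Knockout libraries held 717, 540.1 and 593 on the control diet and 687, 664 and 700.5 on the Western diet. The wild-type diets were fully separate and the knockout diets overlapped. The response was -0.62 (SE 0.12; limma, adjusted p = 0.0145) in the wild type and 0.16 (SE 0.12; limma, adjusted p = 0.285) in the knockout, and the interaction was 0.78 (SE 0.17; limma, adjusted p = 0.0414).

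Tapbp encodes tapasin, which loads peptides onto class I molecules. Its libraries held 752.5, 800.3 and 741 normalized counts in wild-type control mice and 624, 639 and 602 in wild-type Western-diet mice, against 684.5, 716 and 695 and then 842, 756 and 815.5 in the knockout. It fell with the diet in the wild type (-0.30, SE 0.07) and rose in the knockout (0.20, SE 0.07), with no overlap between the diets in either genotype. The interaction was 0.50 (SE 0.10; limma, adjusted p = 0.0414).

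Ltbr, the lymphotoxin beta receptor, which organises lymphoid tissue, was the 1 gene called with a more negative response in the knockout. It rose in the wild type, from 1207, 1244 and 1136 normalized counts to 1442, 1572 and 1495. In the knockout it was 1332, 1550.0 and 1350.0 on the control diet and 1247, 1245 and 1231 on the Western diet. The response was 0.33 (SE 0.08) in the wild type and -0.18 (SE 0.08; limma, adjusted p = 0.0671) in the knockout, and the interaction was -0.51 (SE 0.11; limma, adjusted p = 0.0414). Of 31 tested genes of the TNF family and its receptors, to which Ltbr belongs, 2 were positive and 2 negative at an unadjusted p under 0.05, against 25.2% and 6.18% of all tested genes.

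**Figure D1:**
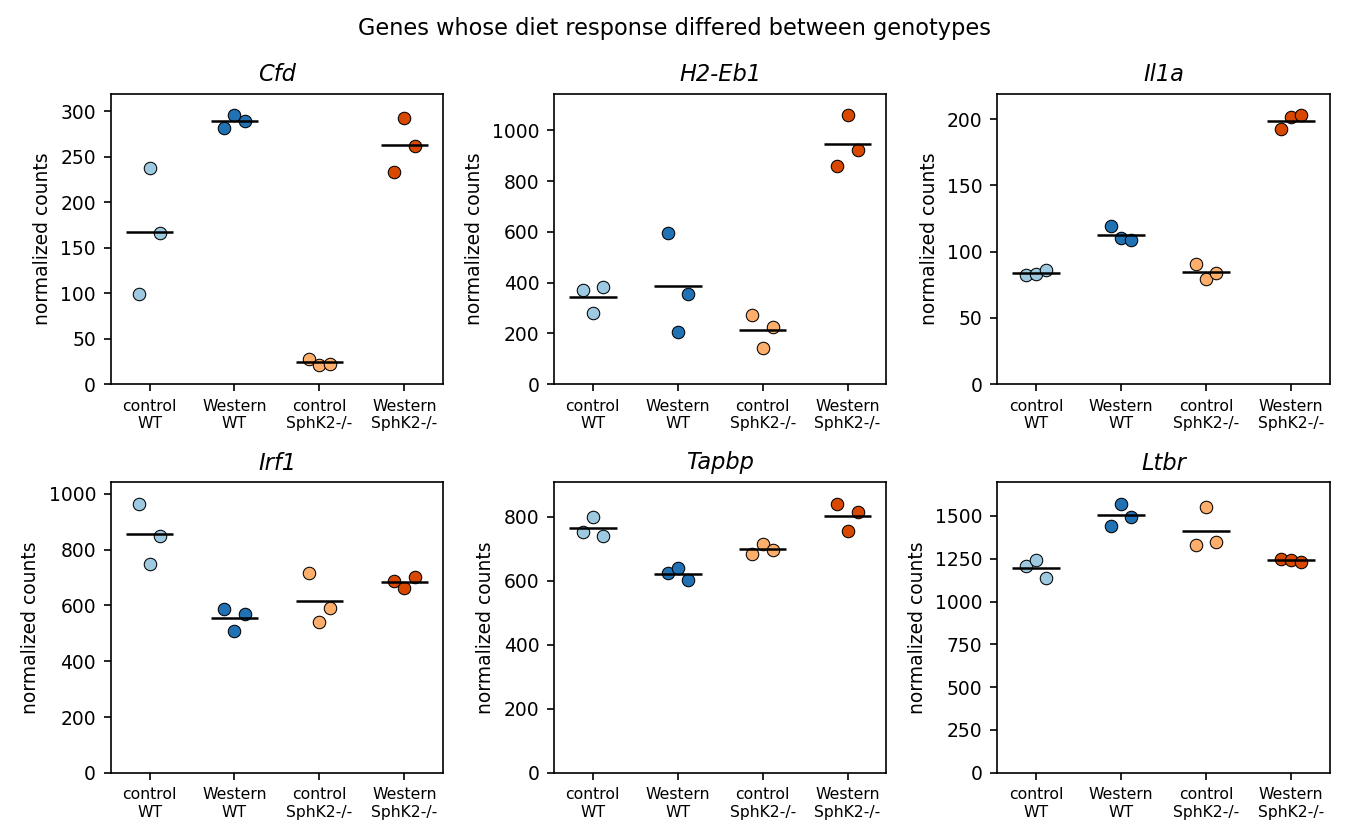
Normalized counts (y axis, linear, from 0) of the 6 genes called in the interaction, by diet and genotype (x axis). Each point is 1 library and each bar the mean of 3. Cfd is lowest in knockout control mice (21.7 to 27.3), H2-Eb1 and Il1a are highest in knockout Western-diet mice, and Irf1 and Tapbp fall with the diet in the wild type alone.

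The 6 calls are 1.32% of the genes tested (limma, Benjamini-Hochberg threshold 0.05), 5 of them positive (1.10%) and 1 negative (0.221%). They sit on a flat stretch of adjusted p: the next is 0.0535, 29 genes reach 0.06 and 81 are under 0.1. At an unadjusted p under 0.05 there were 142 genes, 114 positive and 28 negative, which is 31.3%, 25.2% and 6.18% of those tested. The standard error of the interaction had a median of 0.28, against 0.20 for the diet response of 1 genotype, so a difference of differences needs a larger effect to pass. The number of calls rests on single libraries: 8 of the 12 omissions left Cfd alone, while omitting wild-type Western-diet replicate 1 gave 100 calls, knockout control replicate 1 gave 58, wild-type control replicate 2 gave 11 and wild-type Western-diet replicate 2 gave 4. Sample numbers in the deposited headers separate replicate 3 of each group (17 to 20) from the others (1 to 8), and with this split as a block Cfd alone was called.

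Direction depends on how the libraries are scaled. Under the authors' scaling the median interaction of all tested genes was 0.21. Recentring each library on its median ratio took this median to 0.02, with 16 genes called positive and 21 negative. Recentring on each library's own median took it to -0.24, with 7 positive and 59 negative, and quantile normalization to -0.03, with 13 and 14. Cfd, H2-Eb1 and Ltbr were called under all 3 rescalings. Il1a, Irf1 and Tapbp kept a positive sign and were not called under any of them: their interactions with each library's own median as the centre were 0.35, 0.33 and 0.05.

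Set side by side, the diet responses of the genotypes mostly had the same direction and a larger size in the knockout. The diet response was called for 39 genes in the wild type (8.61%), 22 of them higher (4.86%) and 17 lower (3.75%), and for 205 in the knockout (45.3%), 169 higher (37.3%) and 36 lower (7.95%). Under the rescalings the split in the knockout went to 108 higher and 96 lower, 55 and 228, and 82 and 111, and in the wild type to 17 and 21, 11 and 60, and 20 and 22. Of the genes called in both, 28 of 29 changed in the same direction. The exception was Tapbp. The 176 genes called in the knockout and not in the wild type had a median response of 0.78 in knockout mice against 0.22 in wild-type mice, and 145 of them had the same sign in both; 1 of the 176, H2-Eb1, was called in the interaction. The size of the response was larger in the knockout for 332 genes (73.3%), with a median of 0.40 against 0.22. Across genes, which are not independent replicates, the responses correlated with Pearson's r = 0.64. The median SD within the group was 0.14 in wild-type control and 0.22 in wild-type Western-diet libraries. In the knockout it was 0.21 in control and 0.12 in Western-diet libraries.

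**Figure D2:**
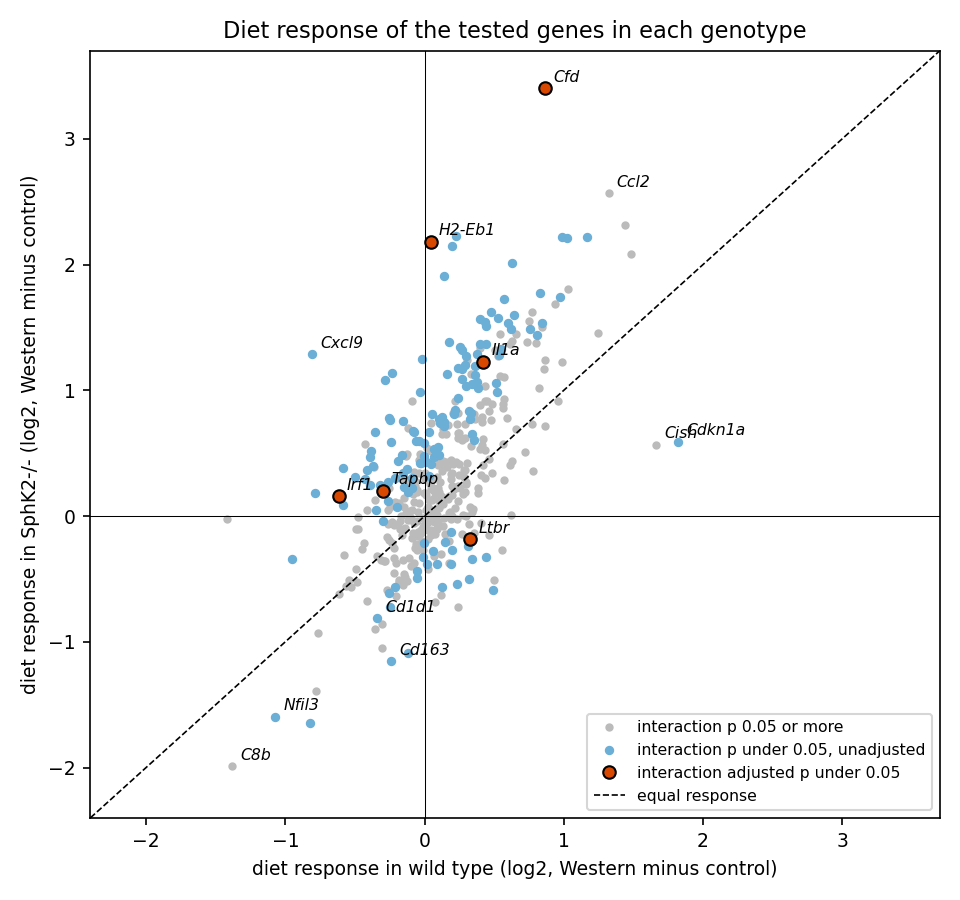
Diet response of each tested gene in the wild type (x axis) and in the knockout (y axis), both as log2 of Western over control diet. The dashed line marks equal responses. Genes with an unadjusted interaction p under 0.05 (blue) lie mostly above the line, 114 against 28, and the 6 called genes are in orange.

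The positive interactions were of several shapes. Of the 114 genes with a positive interaction at an unadjusted p under 0.05, 68 had estimates above 0 in both genotypes and a larger one in the knockout, 44 were below 0 in the wild type and above 0 in the knockout, and 2 were below 0 in both. Read by diet, 69 of the 114 had a lower estimate in the knockout on the control diet and a higher one on the Western diet, and 43 were higher in the knockout on both. The genotype difference passed for 89 of the 114 on the Western diet and for 2 on the control diet. These genes were picked by the interaction, which is the Western-diet genotype difference minus the control-diet one. The share over all tested genes is not given here, so both counts only describe the genes picked. Among the 28 negative genes, 15 were above 0 in the wild type and below 0 in the knockout, 12 were below 0 in both and 1 was above 0 in both.

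Under the authors' scaling, class II antigen presentation was the list with the highest median interaction, 1.02 over 10 tested genes, against 0.21 over all tested genes. The median diet response was 0.18 in the wild type and 1.5 in the knockout. In the knockout 9 of the 10 rose, against 37.3% of all tested genes. In the interaction 1 of the 10 was called, 8 were positive at an unadjusted p under 0.05 and none negative, against 25.2% and 6.18% of all genes. The lowest interaction on the list was 0.0035, for H2-DMb2. The summed level of the list was 3307 to 4726 normalized counts in knockout control libraries and 13330 to 17180 in knockout Western-diet libraries. In the wild type it was 4542 to 5953 on the control diet and 10260, 3611 and 6532 on the Western diet, so wild-type Western-diet replicate 2 was below every control library of its genotype. Without that library the list's median was 0.87, and under own-median scaling it was 0.57.

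H2-Aa, the alpha chain that pairs with the H2-Ab1 beta chain, held 1916, 1340.0 and 1510.0 normalized counts in wild-type control mice and 3221, 999 and 1912 in wild-type Western-diet mice. Knockout levels went from 1389, 683 and 1068 to 4101, 5483 and 4665. Its interaction was 2.01 (SE 0.50; limma, adjusted p = 0.0535), and H2-Ab1 had 1.95 (SE 0.50) at the same adjusted p. Cd74, the invariant chain that guards the peptide groove until the molecule reaches the endosome, had an interaction of 1.76 (SE 0.42; limma, adjusted p = 0.0535). For each of the 3 genes every knockout Western-diet library lay above every other library.

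Other genes of the class II route gave smaller values. Ciita, the master regulator, had an interaction of 1.07 (SE 0.40; limma, adjusted p = 0.109), with 88.5, 108 and 117 normalized counts in knockout Western-diet libraries and 25.2 to 49.4 in knockout control libraries. H2-DMa, which helps exchange peptides, had 0.98 (SE 0.29), and Ctss, the protease cathepsin S that trims the invariant chain, had 0.86 (SE 0.37). H2-Ob, part of the brake on peptide exchange found mainly in B cells, had 0.90 (SE 0.25), with a response of -0.38 in the wild type and 0.52 in the knockout. None of these 4 passed after adjustment. Of 11 tested B-cell genes 4 were positive and 1 negative at an unadjusted p under 0.05, against 25.2% and 6.18% of all tested genes, and the adaptor Blnk had 1.14 (SE 0.34; limma, adjusted p = 0.0623).

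Class I presentation was mixed. Of 11 tested genes, 4 were positive at an unadjusted p under 0.05 and 2 negative, against 25.2% and 6.18% of all tested genes. Their median interaction was 0.09. It fell below 0 under median-ratio and own-median scaling, was 0.19 under quantile scaling, and was 0.047 and 0.14 without knockout control replicates 1 and 2. The positive members were Tapbp and the interferon-inducible genes Psmb9 and Psmb10, subunits of the immunoproteasome, and Tap1, the peptide transporter. Psmb9 held 269, 187 and 214 normalized counts in wild-type control mice and 173, 139 and 188 on the Western diet, against 167, 162 and 153 and then 211, 216 and 194 in the knockout. Its interaction was 0.78 (SE 0.21; limma, adjusted p = 0.0535), and those of Psmb10 and Tap1 were 0.64 (SE 0.24) and 0.45 (SE 0.16), the latter turning negative under own-median scaling. Psmb9, Tap1, Tapbp, H2-Eb1, H2-Aa and H2-Ab1 all lie on chromosome 17, and whether genes of that chromosome differ from the rest was not tested. Among the other H2 genes of the class I and class II lists, H2-DMa and H2-Ob were positive at an unadjusted p under 0.05. H2-K1 (0.17), H2-DMb2 (0.0035) and H2-Q10 (-0.099) did not reach that threshold.

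The interferon and JAK-STAT list had 38 tested genes, of which 1, Irf1, was called, 15 were positive at an unadjusted p under 0.05 and 1 was negative, against 25.2% and 6.18% of all tested genes. Its median interaction of 0.28 was near that of all genes (0.21), was 0.08 under median-ratio scaling and turned negative under own-median and quantile scaling. Ifng itself was at 17.9 to 29.2 normalized counts over all 12 libraries, close to the floor of 20 for testing, and its interaction was -0.18 (SE 0.33). Ifngr1, the ligand-binding receptor chain, held 378, 366 and 381.5 normalized counts in wild-type control mice, 468, 344 and 411.5 in wild-type Western-diet mice, 348, 398 and 413 in knockout control mice, and 603, 691 and 639 in knockout Western-diet mice. It rose in the knockout (0.74, SE 0.11), and the interaction was 0.63 (SE 0.16; limma, adjusted p = 0.0535).

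Jak2, the kinase on the second receptor chain, had 326, 338 and 298 normalized counts in wild-type control mice and 329, 313 and 318 in wild-type Western-diet mice. In the knockout it rose from 270.2, 277 and 279 to 384, 402 and 368, and the interaction was 0.48 (SE 0.11; limma, adjusted p = 0.0535). The wild-type diets overlapped and the knockout diets did not.

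Cxcl9, an interferon-induced chemokine that draws T cells through Cxcr3, held 493, 177 and 352 normalized counts in wild-type control mice and 207, 179.5 and 152 on the Western diet, against 264, 95.8 and 197 and then 405, 426 and 422 in the knockout. It rose in the knockout (1.29, SE 0.37), the wild-type estimate was -0.81 (SE 0.37), and the interaction was 2.10 (SE 0.52; limma, adjusted p = 0.0535). Cxcl10, with the same receptor, had an interaction of 1.15 (SE 0.39). Irf7 and Irf8, interferon-regulated transcription factors, had 0.94 (SE 0.27) and 0.97 (SE 0.31), and Pml, the scaffold of nuclear bodies, had 0.50 (SE 0.13). None of these 5 passed after adjustment. Stat3, the factor of interleukin 6 signalling, was the 1 member of the interferon list with a negative interaction at an unadjusted p under 0.05, -0.36 (SE 0.15). Cxcl11, of the same chemokine family as Cxcl9 and Cxcl10, went the other way from both, at -0.44 (limma, unadjusted p = 0.0629). Omitting 1 library at a time kept it between -0.52 and -0.34.

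**Figure D3:**
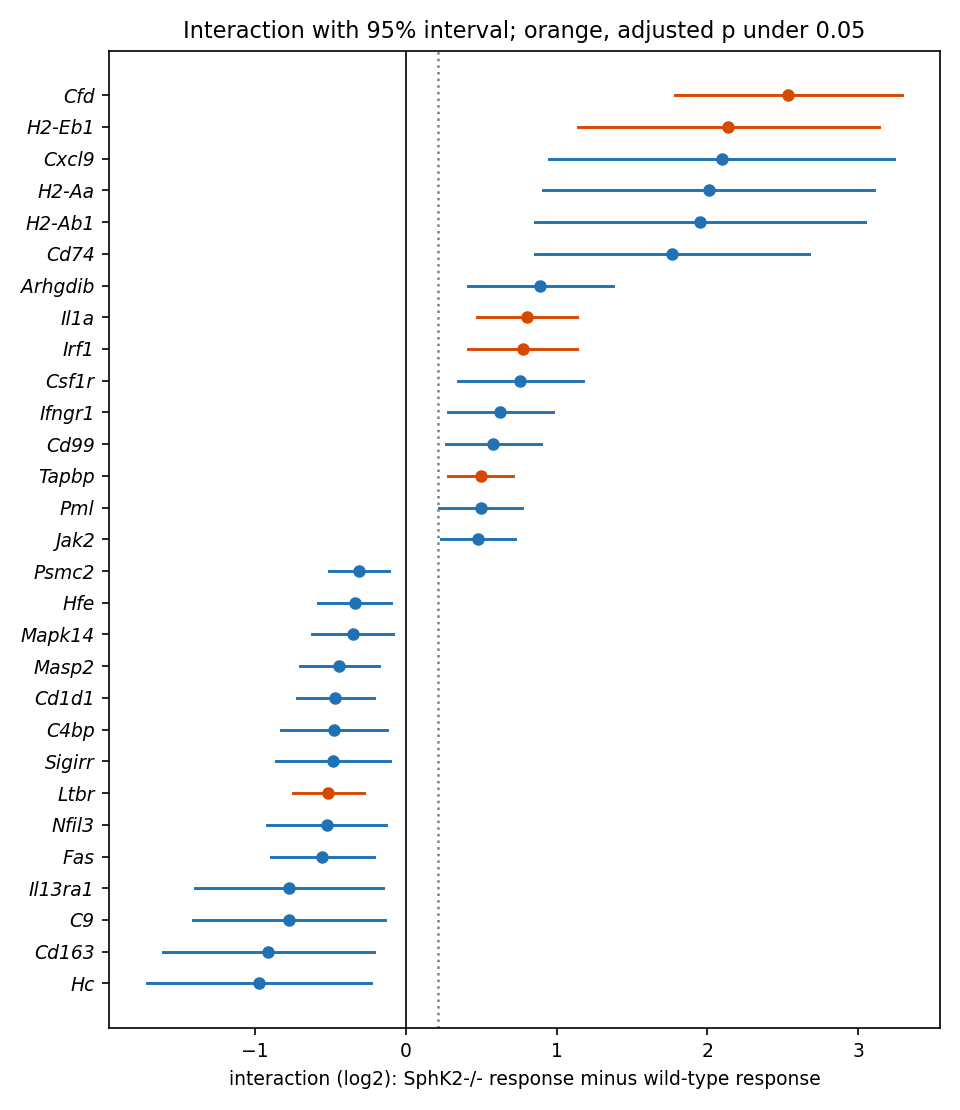
Interaction (x axis, log2, knockout response minus wild-type response) of the 15 positive and 14 negative genes named for their evidence, with 95% intervals from the fit. Genes called are orange, the dotted line is the median of all tested genes (0.21), and Cfd at 2.54 and Hc at -0.97 mark the ends.

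Macrophage and monocyte genes rose in the knockout almost throughout, 26 of 28 tested, with 2 lower, against 37.3% higher and 7.95% lower over all tested genes. In the wild type 2 of them rose, against 4.86% of all. The interaction was called for none of the 28 (limma, with 14 at an unadjusted p under 0.05, 13 of them positive, against 25.2% of all), and its median was 0.71. Under quantile and own-median scaling that median was 0.42 and 0.26. It went to 0.43 without wild-type Western-diet replicate 2, in which the summed level of the list was 8324 normalized counts against 14850 and 11170 in the other two libraries of its group. Csf1r, through which macrophages receive their growth factor, held 492, 488 and 475 normalized counts in wild-type control mice and 582, 359 and 458 in wild-type Western-diet mice. In the knockout it rose from 496, 517 and 529.5 to 794, 858 and 815, and the interaction was 0.76 (SE 0.19; limma, adjusted p = 0.0535).

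Fcer1g and Tyrobp, signalling adaptors of activating receptors, had interactions of 0.91 (SE 0.24) and 0.93 (SE 0.28), and the IgG receptor Fcgr4 had 1.05 (SE 0.33). C1qa, a macrophage-made chain of the first complement component, had 0.66 (SE 0.21). None of these 4 passed after adjustment. In the list of Fc receptor and Syk signalling genes, 9 of 18 were positive at an unadjusted p under 0.05 and none negative, against 25.2% and 6.18% of all tested genes. Trem2, a lipid-sensing receptor that signals through Tyrobp, went from 25.3, 32.5 and 23.5 to 84.5, 32.6 and 57.7 normalized counts in wild-type mice and from 25.2, 52.4 and 44.5 to 167.5, 212 and 178 in the knockout. The Trem2 response was 0.99 (SE 0.33; limma, adjusted p = 0.0859) in the wild type and 2.22 (SE 0.33) in the knockout, and its interaction of 1.23 (SE 0.47) had an adjusted p of 0.109 in limma. A receptor of resident and scavenging macrophages, Cd163, went the other way, with an interaction of -0.91 (SE 0.32; limma, adjusted p = 0.0873). Cd163 fell in the knockout, from 97.8, 119 and 119.5 normalized counts to 58.4, 49.9 and 41.7.

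A list of integrins also held Cd9, Cd44, Cd81, Cd97 and Cd99, surface molecules that are not integrins. Of its 14 tested genes 12 had a positive estimate, and the median was 0.52. At an unadjusted p under 0.05, 8 were positive, Cd44, Cd97 and Cd99 among them, and none was negative. Over all tested genes 25.2% were positive and 6.18% negative at that threshold. Scaling moved this median, to 0.32 (median ratio), 0.25 (quantile) and 0.069 (own median). Itgb2, the shared beta chain of leukocyte integrins, had 1.10 (SE 0.29). Cdh5, the cadherin of endothelial junctions, had 0.45 (SE 0.12), with 411.5, 409 and 365 normalized counts in knockout Western-diet libraries and 269 to 311 in the other 9. Arhgdib, a regulator of small GTPases in blood cells, and Cd99, a molecule used in leukocyte migration through endothelium, had 0.89 (SE 0.22) and 0.58 (SE 0.14). Among the Toll-like receptors, Tlr4 had 0.91 (SE 0.25), Tlr3 0.92 (SE 0.26) and Tlr2 1.36 (SE 0.45). Klrd1, a receptor subunit of NK cells, had 1.27 (SE 0.40). Adjusted p in limma was between 0.0535 and 0.0818 for these 8 genes. At an unadjusted p under 0.05, 7 of 38 genes of Toll-like receptor and NF-kB signalling were positive and 2 negative. Of 9 tested NK-cell genes 3 were positive and none negative, and the estimates of Eomes (-0.20) and Klra8 (-0.14) were below 0. Of 10 endothelial and adhesion genes 4 were positive and none negative. Over all tested genes these shares were 25.2% and 6.18%.

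Of 34 chemokine and receptor genes, 5 were positive at an unadjusted p under 0.05 and 1 negative, a smaller share in each direction than the 25.2% and 6.18% of all tested genes. Ccl9, a macrophage chemokine, held 1449, 1118 and 1344 normalized counts in wild-type control mice and fell to 1035, 574 and 715 on the Western diet. Knockout levels were 1376, 1484 and 1415 and then 1491, 1832 and 1558, and the interaction was 0.97 (SE 0.25; limma, adjusted p = 0.0535). Ccl2, which recruits monocytes, had a similar fitted size at 1.24 (SE 0.67) but a wide spread (limma, adjusted p = 0.22): it was 391.6, 95.9 and 236 in wild-type Western-diet mice. Il1b had 0.74 (SE 0.30), Tnf 1.0 (SE 0.47) and Ccl5 1.01 (SE 0.46), none of them called, and Tnf was at 8.71 to 30.5 normalized counts.

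**Figure D4:**
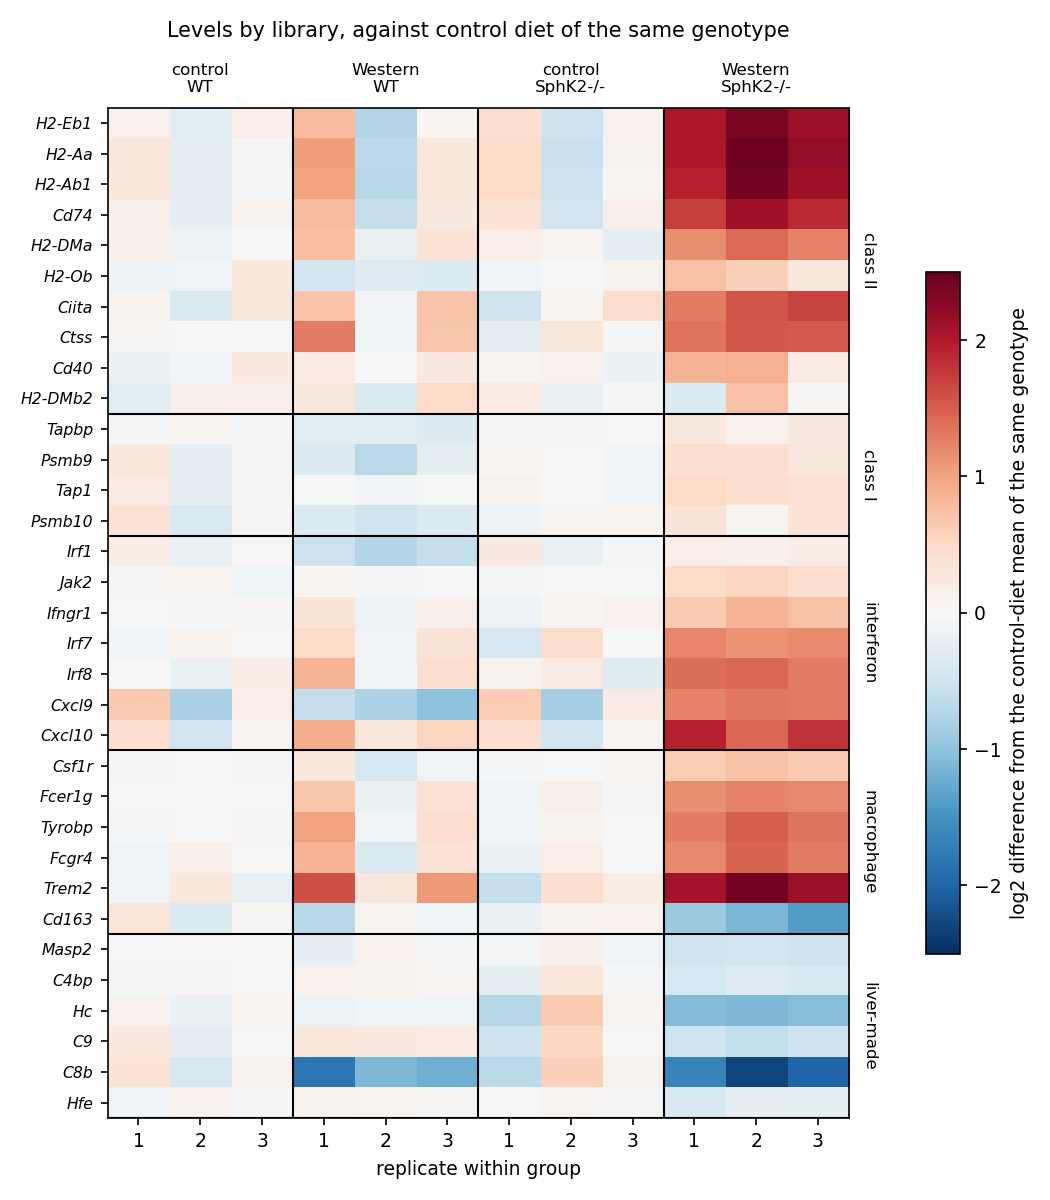
Levels of 33 genes (y axis, by role) in the 12 libraries (x axis, replicate within group), each as the log2 difference from the control-diet mean of the same genotype, red higher and blue lower. Class II genes except H2-DMb2 are red in all 3 knockout Western-diet libraries, while wild-type Western-diet replicate 2 is blue for most class II genes. H2-DMb2 held 28.35, 60.98 and 37.07 normalized counts in knockout Western-diet libraries, against 42.06, 31.92 and 35.56 in knockout control libraries. Knockout control replicates 1 and 2 lie on opposite sides for Hc, C9 and C8b.

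Hepatocyte-made genes had the lowest median interaction among the lists under the authors' scaling, -0.42, with 27 of 30 estimates below 0. At an unadjusted p under 0.05 there were 10 negative and no positive genes, against 6.18% and 25.2% of all tested genes, and none was called (limma). In the knockout 17 of the 30 fell with the diet and 1 rose, against 7.95% and 37.3% of all tested genes, and in the wild type 2 fell, against 3.75%. The summed level of these genes was 243400, 479500 and 348400 normalized counts in the 3 knockout control libraries, against 219300 to 229500 in knockout Western-diet libraries and 218100 to 257100 over the 6 wild-type libraries. The list thus stood high in 2 knockout control libraries, replicates 2 and 3. Without replicate 2 its median interaction was -0.29, and without both libraries that stood apart -0.23. Quantile scaling gave -0.24 and own-median scaling -0.87.

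Masp2, a protease of the lectin complement pathway, held 2936, 2930.0 and 2933 normalized counts in wild-type control mice, 2531, 3157 and 2828 in wild-type Western-diet mice, 2870.0, 3230.0 and 2843 in knockout control mice and 2120.0, 2135 and 2087 in knockout Western-diet mice. Its interaction was -0.44 (SE 0.12; limma, adjusted p = 0.0582), and knockout Western-diet libraries lay below all others. Hc, complement component 5, had -0.97 (SE 0.34; limma, adjusted p = 0.086), with 3531, 9032 and 6024 in knockout control libraries against 2631 to 3646 in the other 9. C9, of the membrane attack complex, had -0.77 (SE 0.29), and the complement inhibitor C4bp had -0.47 (SE 0.16). Without knockout control replicate 2, Hc had -0.65 and C9 -0.51. C8b, another part of that complex, fell in both genotypes, by 1.38 and 1.99 on the log2 scale, and its interaction was -0.61 (SE 0.43; limma, adjusted p = 0.34). Over 30 complement genes the median was -0.32, and Cfd, the member called, had the opposite sign. The median was -0.52 under median-ratio, -0.77 under own-median and -0.075 under quantile scaling, and -0.49 without knockout control replicate 1.

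Further genes had negative interactions. Cd1d1, which presents lipids to NKT cells, fell in both genotypes. It went from 8668, 9654 and 9013 normalized counts to 6688, 7712 and 7135 in wild-type mice and from 8029, 8286 and 7666 to 4284, 4837 and 4563 in the knockout, with an interaction of -0.47 (SE 0.12; limma, adjusted p = 0.0535). Nfil3, a clock-linked repressor, also fell in both, by 1.07 and 1.60 on the log2 scale, and had -0.52 (SE 0.18; limma, adjusted p = 0.0828).

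The death receptor Fas had -0.55 (SE 0.16), the proteasome ATPase Psmc2 -0.31 (SE 0.09) and the iron regulator Hfe -0.34 (SE 0.11). Mapk14, the p38 kinase, had -0.35 (SE 0.12), and Sigirr, a brake on interleukin 1 and Toll-like receptors, had -0.48 (SE 0.17). Il13ra1, a receptor chain for interleukins 4 and 13, had -0.77 (SE 0.28), with 1490.0 and 1066 normalized counts in knockout control replicates 2 and 3 against 569 to 862 in the other 10 libraries. None of these 6 passed after adjustment.

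Cdkn1a and Cish were among the genes with a larger estimate of the diet response in the wild type than in the knockout. Cdkn1a, the cell cycle inhibitor p21, rose from 75.9, 66.0 and 68.5 to 284, 213 and 257 normalized counts in the wild type. In the knockout it was already at 203, 725 and 493 on the control diet and stood at 713, 529 and 659 on the Western diet. Its interaction was -1.23 (SE 0.48; limma, adjusted p = 0.119). Cish, a feedback inhibitor of Stat5, rose by 1.66 in the wild type and had an interaction of -1.10 (SE 0.52; limma, adjusted p = 0.171).

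The interaction was also read for genes that differed between the genotypes on both diets. Ctsc, a protease that activates granule enzymes, was lower in the knockout by 2.00 on the control diet and by 1.99 on the Western diet on the log2 scale, and its interaction was 0.02 (95% interval -0.48 to 0.51). Mme, the peptidase neprilysin, was lower in the knockout by 2.49 and 1.4, and its interaction was 1.09 (SE 0.43; limma, adjusted p = 0.119). Nox4, an NADPH oxidase, had 0.23 (SE 0.12), and its sign turned under own-median scaling. The alarmins S100a8 and S100a9, abundant in neutrophils, had interactions of -0.15 (95% interval -1.28 to 0.98) and -0.21 (-1.45 to 1.02). The 3 knockout control libraries of S100a8 were at 111.5, 384 and 221 normalized counts. Of 5 tested neutrophil genes and 23 tested T-cell genes none was called, with 0 and 2 at an unadjusted p under 0.05, against 31.3% of all tested genes, among them Tcf7, a T-cell transcription factor, at 0.81 (SE 0.23).

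**Figure D5:**
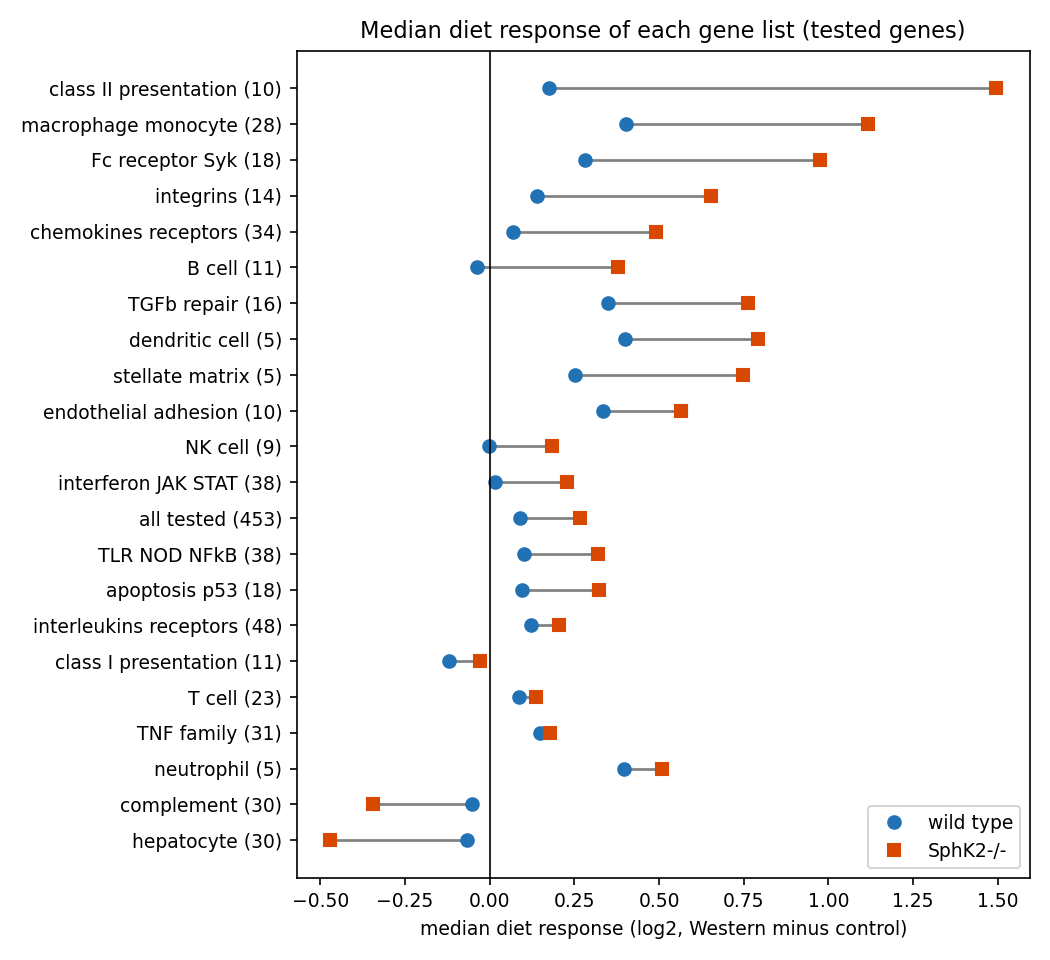
Median diet response (x axis, log2, Western minus control) of each gene list with at least 5 tested genes, in the wild type (circles) and in the knockout (squares). The number of tested genes is in brackets. The distance is widest for class II presentation (0.18 and 1.5) and points downwards for complement and hepatocyte genes.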

How the data were processed

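Probes were counted with a NanoString panel, per the labels' protocols. Each deposited log2 value is a normalized count, per the file headers; the reference genes and software behind the normalization are not given in the sources used here. Samples were grouped by the workbook's header lines, which give the diet and genotype of the sample titles. The series-wide value table, whose columns are displaced by 1 sample, was not used. Taken back from log2, all values (100%, tolerance 0.001) were whole counts times a factor of the library, and these counts set the precision of low genes.

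Linear values plus a pseudocount of 1 were put on the log2 scale again, which understates changes of low genes. Testing took 453 of 547 genes, those averaging 20 normalized counts or more, and left out 94. All 12 libraries entered a limma fit (3.58.1, R 4.3.3) with 4 group means, a variance trend and moderated variances, with two-sided p-values, Benjamini-Hochberg adjustment over all tested genes and a threshold of 0.05. A gene is called where its adjusted p passes. The fit was tested on simulated data. An exact permutation test with 3 against 3 cannot go below 0.1 and was not used.

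Members and gene lists were chosen with earlier results of these data known, so lists carry counts and medians and no test. Named genes are every called gene, filled to 15 per direction by p, up to 4 members per list, further members of families described by role, the 10 largest diet responses each way and 21 fixed genes. A few genes picked this way are not reported here. Alternative settings concerned the pseudocount, low-value filter, library scaling, variance model, age, sample number and omitted libraries.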

Additional observations from a re-analysis of the deposited data

Results flagged for a closer look

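For 6 genes the diet response differed between the genotypes by the interaction test (limma, Benjamini-Hochberg adjustment). Cfd differed by 2.54 (adjusted p = 0.00427) and was higher on the Western diet in 3 of 3 wild-type and 3 of 3 knockout libraries than in any control library of its genotype. H2-Eb1 differed by 2.14, Il1a by 0.81, Irf1 by 0.78, Tapbp by 0.50 and Ltbr by -0.51, each with an adjusted p of 0.0414. For Irf1 the fitted responses of -0.62 and 0.16 have opposite signs, and so have those of Tapbp (-0.30 and 0.20) and Ltbr (0.33 and -0.18).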

How the results depend on the processing

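For the interaction (6 genes called), no pseudocount (6), voom on recovered counts (6), robust variances (5), an equal-variance model per gene (8, with 4 of the 6 shared) and leaving out both libraries that stood apart (6, with 3 shared) stayed within 1.5 times the count. A pseudocount of 10 gave 23 calls, no filter 2, a filter at a mean of 50 normalized counts 39, median-ratio scaling 37, own-median scaling 66, quantile normalization 27, no variance trend 2, array weights 193 (their estimation did not converge), age as a covariate 1, and the sample number block, chosen after seeing the data, 1. Leaving out each library in turn gave 1 to 100 calls; 126 genes were called at least once, and Cfd alone in all 12. For the wild-type diet response (39), own-median scaling gave 71, the equal-variance model 25, age 18, leaving out both libraries 114, the sample number block 25, and single omissions 3 to 94. For the knockout diet response (205), age gave 92 and single omissions 165 to 212. The median interaction of the class I list became -0.10 under median-ratio and -0.36 under own-median scaling, and that of the interferon list -0.17 under own-median scaling and -0.0345 under quantile normalization. Ctsc became -0.18, -0.43 and -0.45 under median-ratio, own-median and quantile scaling and -0.13 with age. Under own-median scaling Tap1 became -0.0033 and Nox4 -0.22. S100a8 became 0.0236 without both libraries; single omissions moved Ctsc, S100a8 and S100a9 between -0.11 and 0.21, -0.61 and 0.28, and -0.74 and 0.20. The causes were not tested, except that fewer or more genes tested change the adjustment. No paired analysis was possible because the labels give no replicate numbers that groups share; the sample number block splits the libraries into 2 sets and pairs none. Genes under 20 normalized counts were left out because their counts are low.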
